A study of Mus musculus with 4 samples.

Results

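PRP-loaded microneedles were set against microneedles alone in mouse skin, by the library labelled PRP-MNs against the library labelled MNs, with 1 library in each group. The genes used were all those at 1 FPKM or more in at least 1 of the 2 libraries, 13933 of 25571 genes in the deposited table. FPKM counts fragments per kilobase of transcript and per unit of library depth. Skin RNA of 4 groups was sequenced, PRP-MNs, MNs, PRP and NC, and the last of these is not spelled out in the labels. Strain, sex, age, harvest time, what the needles were made of and the number of animals behind a library are not given in the sources used here. At the edge of the rule, Zfp536 was included with 0.625 FPKM in PRP-MNs, against 1.00 FPKM in MNs, and Plcd4 was left out with 0.360 FPKM in PRP-MNs, against 0.9997 FPKM in MNs.

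Platelet-rich plasma (PRP) is a platelet concentrate of blood, and its granules release growth factors, chemokines and clotting proteins. Microneedles are arrays of fine points that pierce the outer skin and can deliver a cargo below it. Piercing is itself a wound, and wounded skin is known to recruit neutrophils and monocytes, which respond to and secrete chemokines, before fibroblasts lay down new collagen. Hair follicles and sebaceous glands are appendages of the same epidermis, kept by stem cells under Wnt, BMP and hedgehog signals. The comparison of PRP-MNs with MNs asks what differed in pierced skin when the needles carried PRP.

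The spacing of low values pointed to 17.2 M fragments in PRP-MNs and 18.6 M in MNs, beside 15.9 M in PRP and 19.4 M in NC. At that depth 3 fragments on a transcript of 1 kb came to 0.174 FPKM in PRP-MNs, against 0.161 FPKM in MNs, limits that cover counting error only. Epidermal and dermal markers were present in both libraries, with Krt14 at 2055 FPKM in PRP-MNs, against 3339 FPKM in MNs. Skeletal muscle was present too, with the muscle actin Acta1 at 4777 FPKM in PRP-MNs, against 2926 FPKM in MNs. With 1 library per group there is no replicate check. Each difference describes these libraries and has no p-value. Differences are log2 ratios of FPKM + 1, PRP-MNs over MNs, which understates the difference of low genes.

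Of the 13933 genes, 997 (7.16%) were higher by 2-fold or more in PRP-MNs than in MNs and 1030 (7.39%) lower by 2-fold or more. Fold is taken on FPKM + 1 here and below. Counts of list members past 2-fold, given below, are to be read beside these shares of 7.16% and 7.39%. The median log2 difference of all genes was -0.02, and the quartiles were -0.36 and 0.30. Past 4-fold there were 278 genes higher and 239 lower, and past 16-fold 26 higher and 35 lower. Gene models that were assembled from the reads made up 130 of the higher and 78 of the lower genes, and 684 of all genes used.

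The higher and the lower genes stood differently in the libraries that were not compared. Of the 997 higher genes, 952 had their highest value of all 4 libraries in PRP-MNs and 208 had their lowest in MNs. Of the 1030 lower genes, 763 had their highest value in MNs and 772 had their lowest in PRP-MNs. Being chosen as higher or lower favours these ranks, so the counts are a description only. Among all genes used, PRP-MNs held the highest value of 35.2% and MNs of 29.7%.

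**Figure D1:**
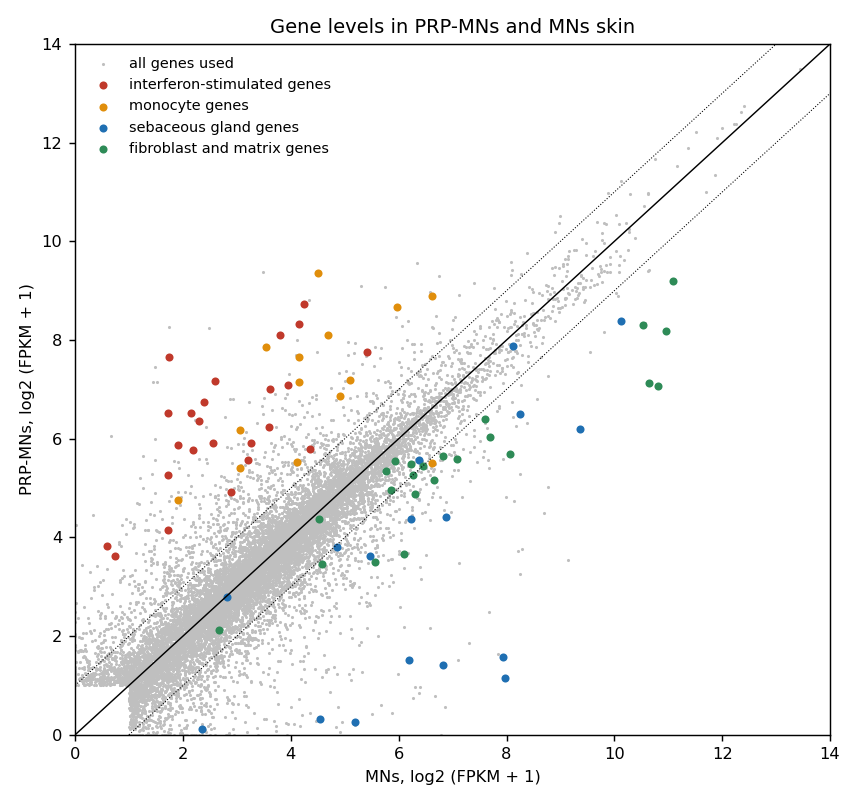
Each point is a gene, with log2 (FPKM + 1) in MNs on the horizontal axis and in PRP-MNs on the vertical axis, 1 library each. The solid line marks equal values and the dotted lines a 2-fold difference. Interferon-stimulated and most monocyte genes lie above the upper dotted line, and most sebaceous gland and matrix genes below the lower one.

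The 15 genes with the largest upward difference, among those at 5 FPKM or more in a library, were chemokines, interferon-induced genes and genes of activated myeloid cells, with an ankyrin repeat gene and a collagenase. The highest was the neutrophil attractant Cxcl2, at 305 FPKM in PRP-MNs, against 2.36 FPKM in MNs, a log2 difference of 6.51. It stood at 6.43 FPKM in PRP, against 2.93 FPKM in NC, so that PRP-MNs was apart from all 3 other libraries. The monocyte attractants Ccl3 and Ccl4 followed the same pattern. Ccl3 was at 174 FPKM in PRP-MNs, against 1.81 FPKM in MNs, and Ccl4 at 142 FPKM in PRP-MNs, against 1.71 FPKM in MNs. Acod1, which makes itaconate in activated macrophages, was at 141 FPKM in PRP-MNs, against 1.86 FPKM in MNs. The Schlafen gene Slfn4 was at 663 FPKM in PRP-MNs, against 10.2 FPKM in MNs, a log2 difference of 5.88. Ankrd1, a stress-responsive ankyrin repeat gene known as a target of YAP signalling, was at 450.0 FPKM in PRP-MNs, against 19.1 FPKM in MNs. The collagenase gene Mmp13 was at 49.1 FPKM in PRP-MNs, against 1.40 FPKM in MNs. Its MNs value was the lowest of the 4 libraries, below 5.99 FPKM in PRP, against 5.75 FPKM in NC.

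The 15 genes with the largest downward difference were led by lipid enzymes of the sebaceous gland. Far2, which reduces fatty acids to the alcohols of wax, was at 1.23 FPKM in PRP-MNs, against 249 FPKM in MNs, a log2 difference of -6.81. The fatty acid elongase gene Elovl3 was at 1.99 FPKM in PRP-MNs, against 244 FPKM in MNs, and Fa2h, which hydroxylates fatty acids, at 2.10 FPKM in PRP-MNs, against 228 FPKM in MNs. In each case the libraries without microneedles lay between, with Far2 at 21.9 FPKM in PRP, against 22.5 FPKM in NC. Krt79, a keratin of the upper follicle and the gland duct, was at 10.6 FPKM in PRP-MNs, against 565 FPKM in MNs. Ccl21a, the chemokine of lymphatic vessels, was at 0.964 FPKM in PRP-MNs, against 78.2 FPKM in MNs. Coch, which encodes the matrix protein cochlin, was at 0.956 FPKM in PRP-MNs, against 83.1 FPKM in MNs. The rest of the 15 were Serpina3j, Aadacl4, Sec14l4, Ces4a, Rnase2b, Awat1, Rarres1, Serpina3b and Elovl6, between -4.99 and -5.90 on the log2 scale.

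On GRCm38, per GENCODE release M21, Cxcl2 (ENSMUSG00000058427) lies on chromosome 5 from 90903871 to 90905938. Acod1 (ENSMUSG00000022126) lies on chromosome 14 from 103046977 to 103056573. Of the lower genes, Far2 (ENSMUSG00000030303) lies on chromosome 6 from 148047259 to 148182758, Elovl3 (ENSMUSG00000038754) on chromosome 19 from 46131897 to 46135694 and Krt79 (ENSMUSG00000061397) on chromosome 15 from 101929332 to 101940324. Slfn4, Ly6c2, Ifit1bl1, Ccl3, Ccl4 and the Serpina3 genes have close relatives, so their values carry doubt wherever a fragment matches more than 1 of them.

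**Figure D2:**
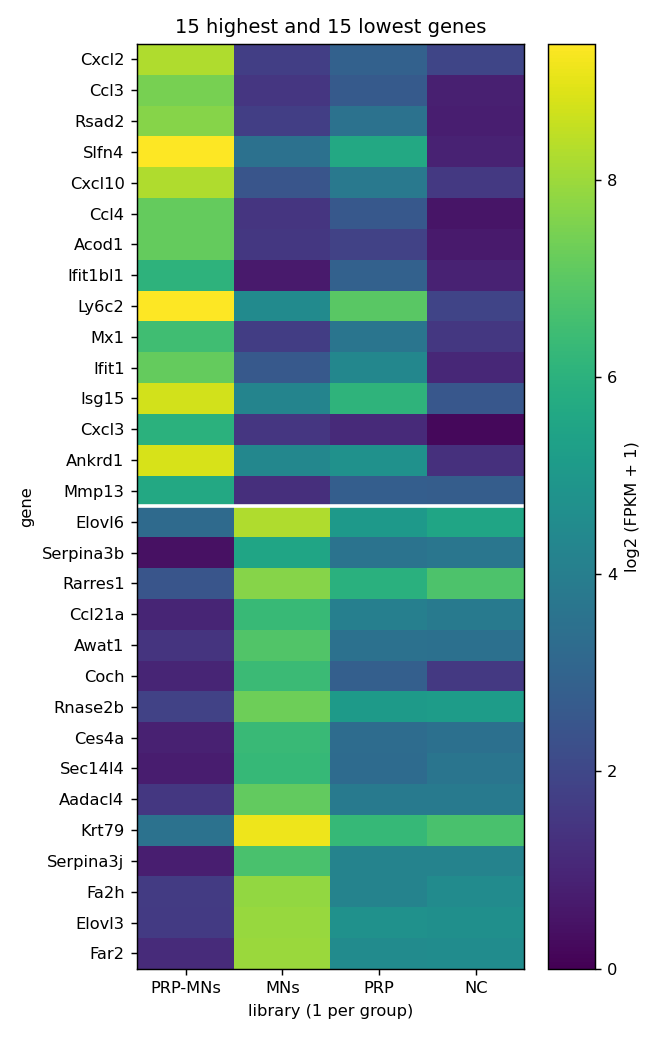
Colour gives log2 (FPKM + 1) of the 15 highest (above the white line) and 15 lowest genes of PRP-MNs over MNs, in rows, in each of the 4 libraries, in columns. The upper rows are brightest in PRP-MNs and the lower rows are brightest in MNs and darkest in PRP-MNs.

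Interferon-stimulated genes, which cells switch on against viruses and other nucleic acids, were higher in PRP-MNs without exception in the list. All 24 were higher by 2-fold or more, beside 7.16% of all genes, for a median difference of 3.47 beside -0.02 for all genes. Rsad2, which encodes the antiviral enzyme viperin, was at 201 FPKM in PRP-MNs, against 2.36 FPKM in MNs. The ubiquitin-like modifier gene Isg15 was at 427 FPKM in PRP-MNs, against 17.8 FPKM in MNs. Mx1, an antiviral GTPase gene, differed by 4.80 and the RNA-binding antiviral gene Ifit1 by 4.56. The difference was smaller for the RNA sensor gene Ifih1, at 29.1 FPKM in PRP-MNs, against 6.41 FPKM in MNs. Mx2 and Ifi44 reached 1 FPKM in PRP-MNs alone, so their higher values follow from the rule. Every one of the 24 had its highest value of the 4 libraries in PRP-MNs.

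Genes known to respond to interferon gamma differed in the same direction by less. Of 17 measured (of 18 listed), 14 were higher by 2-fold or more and none lower, for a median difference of 1.82. Cxcl10, a chemokine for T cells, was at 303 FPKM in PRP-MNs, against 4.59 FPKM in MNs. The GTPase gene Irgm1 was at 95.2 FPKM in PRP-MNs, against 13.9 FPKM in MNs. The immunoproteasome subunit gene Psmb9 was at 30.0 FPKM in PRP-MNs, against 13.5 FPKM in MNs. The 3 within 2-fold were Socs1, Cxcl9 and Ciita. Ciita was near level, at 3.11 FPKM in PRP-MNs, against 2.72 FPKM in MNs. Cxcl9 was at 2.01 FPKM in PRP-MNs, against 0.668 FPKM in MNs, and at 2.68 FPKM in PRP. Ido1 was under 1 FPKM in both PRP-MNs and MNs. Related families, listed after values had been seen, showed the same direction. All 7 measured (of 8 listed) Schlafen genes were higher by 2-fold or more, for a median difference of 2.64. Of 12 genes of the Ifi200 family of nucleic acid sensors 10 were, for a median difference of 2.19.

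Promoters of these genes were read because the interferon-stimulated response element is a short DNA motif to which transcription factors of this pathway bind. The 4 sequences are the 250 bases before the RefSeq start on GRCm38.p6, 5′ to 3′ on the strand of the gene, with the motif in capitals. The 4 were chosen because they hold it, which 6 of the 13 promoters given for the 15 highest genes do, and Cxcl2, Acod1, Slfn4, Ccl3 and Ly6c2 among those do not. The motif searched was GAAA, any 2 bases and GAAA again, or its reverse complement. Isg15 (chr4:156200819-156201068, minus strand) holds 3 overlapping matches, from 78 bases before the start. Ifit1 (chr19:34640639-34640888, plus strand) holds 2, at 104 and 85 bases. Rsad2 (chr12:26456453-26456702, minus strand) and Cxcl10 (chr5:92348890-92349139, minus strand) hold 1 each, at 120 and 213 bases.
Isg15: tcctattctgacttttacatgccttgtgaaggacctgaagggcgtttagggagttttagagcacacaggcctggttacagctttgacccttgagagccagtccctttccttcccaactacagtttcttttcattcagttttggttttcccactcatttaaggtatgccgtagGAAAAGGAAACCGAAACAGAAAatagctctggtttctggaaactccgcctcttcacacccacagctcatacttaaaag
Ifit1: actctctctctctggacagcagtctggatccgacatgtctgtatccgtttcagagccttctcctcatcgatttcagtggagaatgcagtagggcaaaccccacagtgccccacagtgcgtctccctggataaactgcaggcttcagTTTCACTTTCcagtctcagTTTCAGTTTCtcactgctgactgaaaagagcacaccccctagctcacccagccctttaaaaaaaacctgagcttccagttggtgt
Rsad2: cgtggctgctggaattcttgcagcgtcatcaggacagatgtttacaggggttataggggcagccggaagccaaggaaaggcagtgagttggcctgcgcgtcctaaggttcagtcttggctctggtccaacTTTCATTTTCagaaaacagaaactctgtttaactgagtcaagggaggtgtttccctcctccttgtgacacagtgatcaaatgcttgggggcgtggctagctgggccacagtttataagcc
Cxcl10: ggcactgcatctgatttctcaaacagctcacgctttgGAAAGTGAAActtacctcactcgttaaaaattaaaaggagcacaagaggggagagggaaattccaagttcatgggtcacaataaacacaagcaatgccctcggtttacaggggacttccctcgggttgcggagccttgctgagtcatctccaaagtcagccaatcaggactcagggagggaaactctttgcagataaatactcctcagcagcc

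The motif was searched on both strands in the 250 bases before the most upstream RefSeq start of each gene. A promoter was given for 10330 of the 13927 gene symbols used, and 2.82% of those held it. Among the genes higher by 2-fold or more in PRP-MNs it was held by 70 of 654 promoters (10.7%), and among those higher by 4-fold or more by 43 of 207 (20.8%). Of the genes lower by 2-fold or more, 12 of 718 (1.67%) held it. In the interferon list the share was 9 of 18. The AP-1 motif TGANTCA, also on both strands, was held by 11.9% of the higher, 7.38% of the lower and 4.94% of all promoters. For a loose NF-kB motif, GGG and CC with any 5 bases between them, the shares were 52.4%, 60.0% and 61.4%, in the same order. Base composition differs between promoters, and a match is no evidence of binding.

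Chemokine genes for neutrophils and many of those for monocytes and T cells were higher in PRP-MNs. All 6 neutrophil-attracting or platelet chemokines were above 0 in difference, and 4 were higher by 2-fold or more, for a median difference of 2.88. Cxcl5 was at 244 FPKM in PRP-MNs, against 35.6 FPKM in MNs, and it was at 1.74 FPKM in PRP and listed at 0 in NC. Cxcl3 was at 62.6 FPKM in PRP-MNs, against 1.81 FPKM in MNs. Cxcl1, which acts on the same receptor, was close in both, at 45.5 FPKM in PRP-MNs, against 34.7 FPKM in MNs.

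Among 18 measured (of 19 listed) chemokines for monocytes and lymphocytes, 8 were higher by 2-fold or more in PRP-MNs and 3 lower, beside 7.39% of all genes lower, for a median difference of 0.37. The monocyte attractant Ccl12 was at 112 FPKM in PRP-MNs, against 13.8 FPKM in MNs. Ccl5, a T cell attractant, was at 14.0 FPKM in PRP-MNs, against 0.759 FPKM in MNs, a log2 difference of 3.09. The eosinophil attractant Ccl11 differed by 0.22 on the log2 scale. Lower were Ccl20, Cxcl14 and Ccl27a. These 3 were named after their values had been seen. Ccl20 was at 0.648 FPKM in PRP-MNs, against 5.14 FPKM in MNs. Ccl5 reached 1 FPKM in PRP-MNs alone and Ccl20 in MNs alone, so the directions of these genes follow from the rule. Cxcl14 was at 52.4 FPKM in PRP-MNs, against 129 FPKM in MNs.

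Cytokine genes of acute inflammation differed unevenly. Of 17 measured (of 21 listed), 7 were higher by 2-fold or more in PRP-MNs and none lower, for a median difference of 0.94. Of the measured ones, 4 reached 1 FPKM in PRP-MNs alone, which favours a higher median. Interleukin-1 beta (Il1b), a main alarm cytokine of myeloid cells, was at 539 FPKM in PRP-MNs, against 52.5 FPKM in MNs. Il1rn, the natural antagonist of its receptor, was at 256 FPKM in PRP-MNs, against 16.4 FPKM in MNs. Agonist and antagonist thus both stood highest in PRP-MNs. Tumour necrosis factor (Tnf) was at 17.3 FPKM in PRP-MNs, against 1.11 FPKM in MNs, and oncostatin M (Osm) was higher by 3.02 on the log2 scale. Il6, another cytokine of the acute phase, was at 18.6 FPKM in PRP-MNs, against 24.9 FPKM in MNs, a log2 difference of -0.40. Both values were far above 1.14 FPKM in PRP, against 0.258 FPKM in NC.

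Genes of infiltrating myeloid cells were higher in PRP-MNs. In bulk skin, more cells of a type and more RNA per cell cannot be told apart. Genes shared by leukocytes had a median difference of 1.44, and 13 of 14 were higher by 2-fold or more, with Cd52 at 182 FPKM in PRP-MNs, against 38.8 FPKM in MNs. The summed level of that list was 1916 FPKM in PRP-MNs, against 625 FPKM in MNs, beside 620.2 FPKM in PRP and 158 FPKM in NC. The part of leukocyte number in the inflammatory differences was not tested.

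Neutrophil genes had a median difference of 2.42, and 14 of 15 measured (of 18 listed) were higher by 2-fold or more. Clec4e, a receptor for fungal and dead-cell ligands on myeloid cells, was at 111 FPKM in PRP-MNs, against 6.32 FPKM in MNs, and the amplifying receptor gene Trem1 at 45.0 FPKM in PRP-MNs, against 2.77 FPKM in MNs. The iron-binding protein gene Lcn2, which keratinocytes also make, was nearly level at 72.9 FPKM in PRP-MNs, against 64.0 FPKM in MNs. The granule genes Ngp, Ltf and Camp were under 1 FPKM in both.

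Of 14 monocyte genes, 13 were higher by 2-fold or more in PRP-MNs, for a median difference of 2.78. The surface gene of inflammatory monocytes Ly6c2 was at 651 FPKM in PRP-MNs, against 21.6 FPKM in MNs. Its level was 125 FPKM in PRP, against 2.81 FPKM in NC, so both libraries with PRP stood above both without. Cd14, the co-receptor for bacterial lipopolysaccharide, was at 201 FPKM in PRP-MNs, against 16.8 FPKM in MNs, and the chitinase-like gene Chil3 at 274 FPKM in PRP-MNs, against 24.9 FPKM in MNs. The exception was F13a1, which encodes a clotting factor subunit and is also made by resident macrophages, at 44.4 FPKM in PRP-MNs, against 97.5 FPKM in MNs. Of 16 Fc gamma and Toll-like receptor genes, 11 were higher by 2-fold or more, for a median difference of 1.70. The activating receptor genes Fcgr1 and Fcgr4 differed by 3.01 and 2.97, and the inhibitory Fcgr2b by -0.08. In the Ms4a family, listed after values had been seen, 9 of 11 measured (of 19 listed) genes were higher by 2-fold or more, with Ms4a4c at 231 FPKM in PRP-MNs, against 10.6 FPKM in MNs.

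Macrophage genes did not share that direction. Of 18, 4 were higher by 2-fold or more and 4 lower, for a median difference of -0.20. Osteopontin (Spp1), a secreted protein of wound macrophages, was at 545 FPKM in PRP-MNs, against 38.4 FPKM in MNs. Cd163, the haemoglobin scavenger receptor of resident macrophages, was at 10.6 FPKM in PRP-MNs, against 38.3 FPKM in MNs. Lyve1, a marker of perivascular macrophages and of lymphatic vessels, was at 2.91 FPKM in PRP-MNs, against 33.9 FPKM in MNs. The general macrophage marker Adgre1 was level, at 37.3 FPKM in PRP-MNs, against 35.2 FPKM in MNs. Of 9 (of 10 listed) activation genes, 5 were higher by 2-fold or more and 1 lower, for a median difference of 1.03. Higher were Acod1, given above, Arg1, an arginine-degrading enzyme, and Ptgs2, the inducible prostaglandin synthase, at 41.8 FPKM in PRP-MNs, against 11.3 FPKM in MNs. The lower one was Retnla, at 7.55 FPKM in PRP-MNs, against 58.7 FPKM in MNs. Retnla was also lower in PRP (31.0 FPKM) than in NC (127 FPKM).

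Other resident immune cells showed lower or mixed values. Mast cell genes were all below 0 in difference, 5 of 8 measured (of 9 listed) lower by 2-fold or more, for a median difference of -1.08. The mast cell protease gene Mcpt4 was at 10.8 FPKM in PRP-MNs, against 56.6 FPKM in MNs, and carboxypeptidase A3 (Cpa3) at 7.22 FPKM in PRP-MNs, against 34.0 FPKM in MNs. Of the 8, 3 reached 1 FPKM in MNs alone, so their lower values follow from the rule. In 7 of the 8 MNs held the highest value of the 4 libraries. Langerhans and dendritic cell genes had a median difference of -0.07, with 1 of 11 (of 13 listed) higher by 2-fold or more and 3 lower. The dermal dendritic cell lectin Mgl2 was at 1.25 FPKM in PRP-MNs, against 23.0 FPKM in MNs, whereas the antigen-presenting gene H2-Aa was level at 142 FPKM in PRP-MNs, against 149 FPKM in MNs. Among 11 measured (of 16 listed) T and NK cell genes 3 were higher by 2-fold or more and 1 lower, for a median difference of 0.68. Of the measured ones, 5 reached 1 FPKM in PRP-MNs alone and 1 in MNs alone, so the directions of these genes follow from the rule. The interleukin-7 receptor gene Il7r was at 18.7 FPKM in PRP-MNs, against 2.46 FPKM in MNs, and the killer cell protease gene Gzmb at 7.79 FPKM in PRP-MNs, against 0.776 FPKM in MNs. Of the B cell list 1 gene was measured, Jchain, at 0.0418 FPKM in PRP-MNs, against 1.73 FPKM in MNs.

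**Figure D3:**
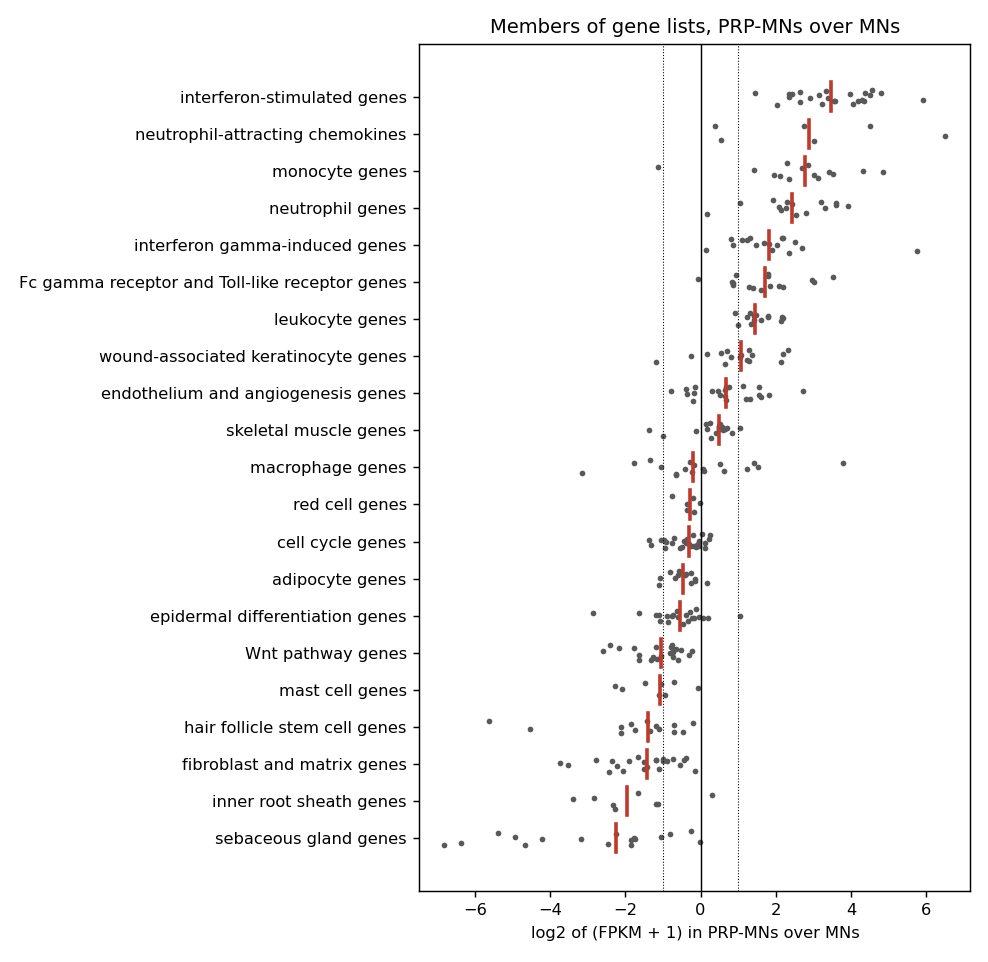
Each grey point is a measured member of a gene list at its log2 ratio of FPKM + 1, PRP-MNs over MNs, and the red bar is the median of the list. Dotted lines mark a 2-fold difference. Lists are ordered by median, from interferon-stimulated genes (3.47) to sebaceous gland genes (-2.24).

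Most genes that define platelets were under 1 FPKM in both libraries, and those above it are also made by other cells. Of 10 platelet genes 3 reached 1 FPKM, for a median difference of 0.55. Platelet factor 4 (Pf4), a granule chemokine that some macrophages also make, was at 236 FPKM in PRP-MNs, against 161 FPKM in MNs. The other granule chemokine gene, Ppbp, was at 56.1 FPKM in PRP-MNs, against 6.06 FPKM in MNs, but at 0.738 FPKM in PRP, against 0.315 FPKM in NC. The platelet integrin gene Itga2b, also found on mast cells and progenitors, was at 1.37 FPKM in PRP-MNs, against 2.72 FPKM in MNs. The platelet receptor genes Gp1ba, Gp1bb, Gp9, Gp6, Treml1 and Clec1b and the tubulin gene Tubb1 were under 1 FPKM in both. Red cell genes had a median difference of -0.28, and none of 6 (of 8 listed) differed by 2-fold, with the globin gene Hba-a1 at 456 FPKM in PRP-MNs, against 463 FPKM in MNs.

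Transcripts of the growth factors that platelets carry, and of their receptors, had a median difference of -0.42. Of 27, 1 was higher by 2-fold or more and 4 lower, beside 7.16% and 7.39% of all genes. The higher one was Kdr, the main VEGF receptor of endothelium, at 16.2 FPKM in PRP-MNs, against 6.91 FPKM in MNs. Among ligands, Vegfa differed by 0.25, Pdgfa by 0.74, Pdgfb by 0.51, Tgfb1 by 0.54 and Igf1 by -0.83, all within 2-fold. Lower were the transforming growth factor gene Tgfb2, the epithelial mitogens Fgf10 and Hgf, and Fgfr2, the keratinocyte receptor for Fgf7 and Fgf10. Fgf10 was at 0.529 FPKM in PRP-MNs, against 2.83 FPKM in MNs. Of the 27, 2 reached 1 FPKM in MNs alone, Fgf10 among them, which favours a lower median. Fgfr2 had a log2 difference of -2.17. Its ligand Fgf7 was at 10.9 FPKM in PRP-MNs, against 20.5 FPKM in MNs. Of 8 EGF receptor ligands, 2 were higher by 2-fold or more and 1 lower, for a median difference of 0.59. Heparin-binding EGF (Hbegf) was at 44.9 FPKM in PRP-MNs, against 13.2 FPKM in MNs, and epiregulin (Ereg) at 4.81 FPKM in PRP-MNs, against 12.0 FPKM in MNs.

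Genes of clotting and of plasminogen activation leaned upward, with 6 of 16 higher by 2-fold or more, 2 lower and a median of 0.85. Thbs1, the gene of the matricellular protein thrombospondin-1, was at 477 FPKM in PRP-MNs, against 96.8 FPKM in MNs. The urokinase receptor gene Plaur was higher by 2.34 on the log2 scale, and clotting factor X (F10) was at 26.0 FPKM in PRP-MNs, against 2.73 FPKM in MNs. The tissue activator Plat and the inhibitor Tfpi differed by -0.10 and 0.22. Complement genes divided by component, with 3 of 15 higher by 2-fold or more, 6 lower and a median of -0.66. Receptors for the complement peptides were higher, C3ar1 at 56.1 FPKM in PRP-MNs, against 11.9 FPKM in MNs and C5ar1 at 62.5 FPKM in PRP-MNs, against 14.5 FPKM in MNs. The classical pathway gene C4b was at 21.6 FPKM in PRP-MNs, against 85.9 FPKM in MNs, and Serping1, the inhibitor of its first step, at 75.4 FPKM in PRP-MNs, against 289.8 FPKM in MNs.

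Keratinocyte genes of the normal epidermis had medians below 0, less far below than those of the sebaceous gland and follicle stem cell lists given further on. Of 22 measured (of 23 listed) differentiation genes, 5 were lower by 2-fold or more and 1 higher, for a median difference of -0.53. The suprabasal keratin Krt10 was at 475 FPKM in PRP-MNs, against 1079 FPKM in MNs, and its partner Krt1 at 287 FPKM in PRP-MNs, against 900.5 FPKM in MNs. Both were several times higher without microneedles, with Krt10 at 3428 FPKM in PRP, against 6056 FPKM in NC. The late envelope genes Lce1a1 and Lce1b were level between PRP-MNs and MNs, with differences of -0.04 and 0.07. Basal keratinocyte genes had a median difference of -0.63, with 3 of 12 lower by 2-fold or more and 1 higher. Krt5 was at 689 FPKM in PRP-MNs, against 1605 FPKM in MNs, and the basal transcription factor gene Trp63 at 22.4 FPKM in PRP-MNs, against 47.5 FPKM in MNs. In the keratin family as a whole, listed after values had been seen, 12 of 22 measured (of 53 listed) genes were lower by 2-fold or more and none higher, and 6 reached 1 FPKM in MNs alone.

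Genes that keratinocytes switch on at a wound were higher, with 9 of 16 higher by 2-fold or more, 1 lower and a median of 1.07. The cornified envelope gene Sprr2d was at 44.3 FPKM in PRP-MNs, against 9.35 FPKM in MNs. The alarmin S100a7a was at 6.25 FPKM in PRP-MNs, against 0.601 FPKM in MNs. S100a7a reached 1 FPKM in PRP-MNs alone, so its higher value follows from the rule. The integrin gene Itga5, a fibronectin receptor subunit, was at 43.3 FPKM in PRP-MNs, against 16.1 FPKM in MNs. The wound keratins did not differ by 2-fold, with Krt6a at 1325 FPKM in PRP-MNs, against 1187 FPKM in MNs and Krt17 at 463 FPKM in PRP-MNs, against 551 FPKM in MNs. The 1 lower gene was the matrix gene Tnc. Plaur and Itga5 are also made by myeloid cells, so that the list does not measure keratinocytes alone.

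Sebaceous gland genes were the lowest list. All 17 lay below 0 in difference and 14 were lower by 2-fold or more in PRP-MNs, for a median difference of -2.24. The wax synthase gene Awat1 was at 1.68 FPKM in PRP-MNs, against 112 FPKM in MNs, and the desaturase gene Scd3 at 0.199 FPKM in PRP-MNs, against 35.4 FPKM in MNs. The lipid droplet gene Plin2, which macrophages also express, was close in both, at 234 FPKM in PRP-MNs, against 278 FPKM in MNs. MNs held the highest value of the 4 libraries in 15 of the 17 genes and PRP-MNs the lowest in 11. The summed level was 856 FPKM in PRP-MNs, against 3449.7 FPKM in MNs, beside 1108 FPKM in PRP and 1093 FPKM in NC. In sum, MNs stood above and PRP-MNs below both libraries without microneedles. Of the 17, 3 reached 1 FPKM in MNs alone, Scd3 among them, so their lower values follow from the rule.

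Cholesterol synthesis genes, listed after values had been seen, differed in the same direction as the gland genes. Of 20, 12 were lower by 2-fold or more and none higher, for a median difference of -1.34.

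Hair follicle stem cell genes were lower in PRP-MNs as well. All 14 lay below 0 in difference and 10 were lower by 2-fold or more, for a median difference of -1.39. Krt15, a keratin of the follicle bulge and of basal cells, was at 12.6 FPKM in PRP-MNs, against 313 FPKM in MNs. The stem cell receptor gene Lgr5 was at 0.629 FPKM in PRP-MNs, against 6.10 FPKM in MNs, and the bulge transcription factor gene Lhx2 at 0.663 FPKM in PRP-MNs, against 6.17 FPKM in MNs. For Lgr5 and Lhx2 the MNs value stood alone, since PRP and NC were both under 1 FPKM. Of the 14, 5 were measured through MNs alone, Lgr5 and Lhx2 among them. The lower values of these 5 follow from the rule, which favours a lower median.

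Growing hair was barely represented. Of 13 hair shaft keratins listed, 12 were in the table and none reached 1 FPKM in PRP-MNs or in MNs. Of 8 measured (of 13 listed) inner root sheath genes, 7 reached 1 FPKM in MNs alone, so their lower values in PRP-MNs follow from the rule. Krt71 was listed at 0 in PRP-MNs and at 9.52 FPKM in MNs, and the sheath protein gene Tchh was at 0.567 FPKM in PRP-MNs, against 6.54 FPKM in MNs. Pigment cell genes showed the same limit, with 4 of 5 measured (of 8 listed) through MNs alone. The melanin enzyme gene Dct was at 0.349 FPKM in PRP-MNs, against 8.98 FPKM in MNs, and the lineage factor Mitf was level at 5.89 FPKM in PRP-MNs, against 5.87 FPKM in MNs. Hair matrix and lineage genes had a median difference of -0.31, with 2 of 11 (of 14 listed) higher by 2-fold or more and 2 lower. The higher ones were Runx1, which myeloid cells also express, at 25.6 FPKM in PRP-MNs, against 8.26 FPKM in MNs, and sonic hedgehog (Shh). Shh was at 2.28 FPKM in PRP-MNs, against 0.131 FPKM in MNs, a value under that of 3 fragments on 1 kb, and it was listed at 0 in PRP and in NC. Shh reached 1 FPKM in PRP-MNs alone, so its higher value follows from the rule. In MNs alone, 1 other gene of the list reached it. The hedgehog targets Ptch1 and Gli1 differed by -0.31 and -0.71.

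Wnt pathway genes, a list that holds both activators and inhibitors of the signal, were below 0 in difference wherever measured. Of 23 measured (of 26 listed), 12 were lower by 2-fold or more in PRP-MNs, for a median difference of -1.06. Of those measured, 3 reached 1 FPKM in MNs alone, Rspo1 among them, so their lower values follow from the rule. Secreted inhibitors and an activator were among the lower genes. The inhibitor gene Dkk3 was at 1.70 FPKM in PRP-MNs, against 15.3 FPKM in MNs, the inhibitor Sfrp4 at 4.78 FPKM in PRP-MNs, against 25.1 FPKM in MNs, and the activator Rspo1 at 0.283 FPKM in PRP-MNs, against 5.84 FPKM in MNs. The ligand Wnt3a differed by -0.23 and beta-catenin (Ctnnb1), the transducer of the signal, by -0.59, both within 2-fold. The Wnt target Lef1 and the ligand Wnt10b were under 1 FPKM in both.

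BMP signals and other genes of follicle rest had a median difference of -0.47, with 3 of 14 lower by 2-fold or more and none higher. The BMP antagonist Grem1 was at 1.18 FPKM in PRP-MNs, against 17.3 FPKM in MNs, and the ligand Bmp7 at 2.27 FPKM in PRP-MNs, against 13.9 FPKM in MNs. Bmp4, which holds follicles at rest, differed by -0.91. Fgf5, a signal of follicle regression, differed by 0.72, at 1.03 FPKM in PRP-MNs, against 0.233 FPKM in MNs. Fgf5 reached 1 FPKM in PRP-MNs alone, so its higher value follows from the rule, and 1 other gene of the list reached it in MNs alone. Dermal papilla genes had a median difference of -0.44, with 2 of 14 (of 18 listed) higher by 2-fold or more and 3 lower. Of the 14, 2 reached 1 FPKM in MNs alone, Wif1 among them, which favours a lower median. The Wnt inhibitor Wif1 was at 0.205 FPKM in PRP-MNs, against 7.88 FPKM in MNs, and the retinoid-binding gene Crabp1 at 23.0 FPKM in PRP-MNs, against 63.3 FPKM in MNs. Vcan, a proteoglycan of the papilla that monocytes also make, was at 45.3 FPKM in PRP-MNs, against 16.3 FPKM in MNs.

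Fibroblast and matrix genes were lower in PRP-MNs throughout the list. All 23 lay below 0 in difference and 17 were lower by 2-fold or more, for a median difference of -1.43. The chains of collagen I showed the largest differences. Col1a1 was at 139 FPKM in PRP-MNs, against 1589 FPKM in MNs, and Col1a2 at 133 FPKM in PRP-MNs, against 1796 FPKM in MNs. Collagen III (Col3a1) was at 289.6 FPKM in PRP-MNs, against 1983 FPKM in MNs. These levels in PRP-MNs lay near those of NC, where Col1a1 was at 120.3 FPKM and Col3a1 at 226 FPKM, and MNs held the highest value of the 4 libraries in 21 of the 23 genes. Not all fibroblast markers took part, since the PDGF receptor Pdgfra differed by -0.38 and the microfibril gene Mfap5 by -0.15. Among all collagen chains, listed after values had been seen, 13 of 26 measured (of 44 listed) were lower by 2-fold or more and none higher, for a median difference of -0.99, and 4 reached 1 FPKM in MNs alone.

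Metalloproteinase genes, whose products cut the matrix, went both ways. Of 17 with their inhibitors, 5 were higher by 2-fold or more and 6 lower, for a median difference of -0.08. Besides Mmp13, the stromelysin gene Mmp10 was at 7.59 FPKM in PRP-MNs, against 0.371 FPKM in MNs. Mmp10 reached 1 FPKM in PRP-MNs alone, so its higher value follows from the rule. The neutrophil collagenase gene Mmp8 was at 14.5 FPKM in PRP-MNs, against 2.51 FPKM in MNs. Mmp2, a gelatinase of fibroblasts, was at 38.1 FPKM in PRP-MNs, against 303 FPKM in MNs. Adamts1 and Adamts5, which cut proteoglycans, were nearly level, with differences of -0.08 and -0.20.

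**Figure D4:**
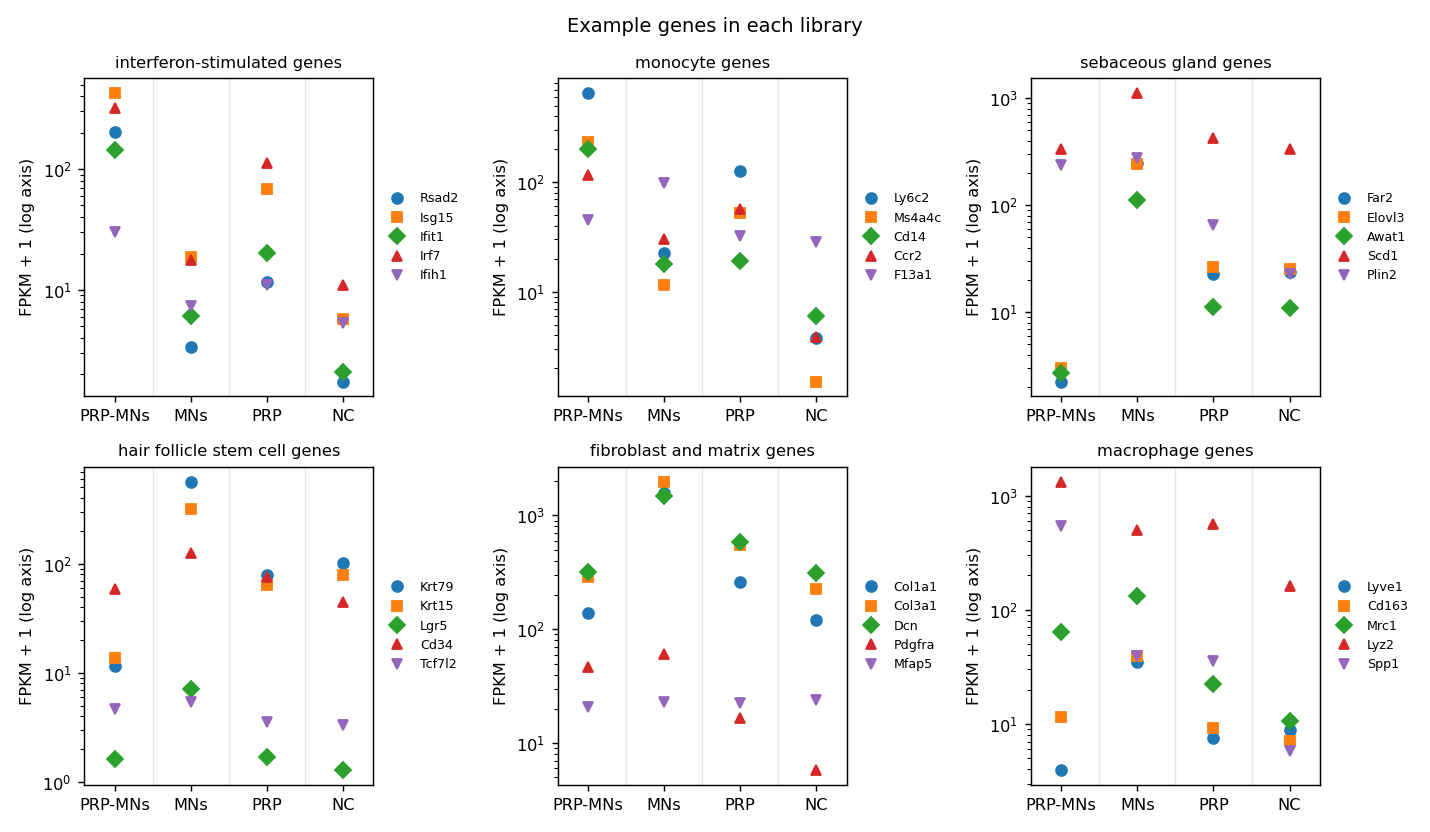
FPKM + 1 on a log axis in PRP-MNs, MNs, PRP and NC, 1 library each, for 5 example genes of 6 lists, chosen after their values had been seen. Far2 was at 1.23 FPKM in PRP-MNs, against 249 FPKM in MNs, and Ly6c2 at 651 FPKM in PRP-MNs, against 21.6 FPKM in MNs.

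Blood vessel genes were on the higher side. Of 22, 8 were higher by 2-fold or more in PRP-MNs and none lower, for a median difference of 0.67. They included genes of sprouting and of activated vessels. The apelin gene Apln, active at vessel sprouts, was at 24.3 FPKM in PRP-MNs, against 2.87 FPKM in MNs, and placental growth factor (Pgf) at 6.87 FPKM in PRP-MNs, against 1.23 FPKM in MNs. P-selectin (Selp), on which leukocytes roll and which platelets also carry, was at 30.6 FPKM in PRP-MNs, against 9.68 FPKM in MNs. The capillary gene Plvap was level, at 54.0 FPKM in PRP-MNs, against 60.7 FPKM in MNs. Lymphatic vessel genes had a median difference of -0.97, with 3 of 7 lower by 2-fold or more. Of the 7 measured, 3 reached 1 FPKM in MNs alone, Ccl21a among them, so their lower values follow from the rule. Beside Ccl21a and Lyve1, Mmrn1, a gene of lymphatic endothelium, was at 1.25 FPKM in PRP-MNs, against 8.15 FPKM in MNs, whereas podoplanin (Pdpn), which fibroblasts and keratinocytes also make, differed by 0.55.

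Smooth muscle and pericyte genes had a median difference of -0.53, with 1 of 13 higher by 2-fold or more and 3 lower. The smooth muscle myosin gene Myh11 was at 9.74 FPKM in PRP-MNs, against 24.2 FPKM in MNs, and desmin (Des), which skeletal muscle also makes, at 680.1 FPKM in PRP-MNs, against 274 FPKM in MNs. Skeletal muscle genes had a median difference of 0.48. Of 19 (of 20 listed), 1 was higher by 2-fold or more and 2 lower, beside 7.16% and 7.39% of all genes. Their summed level was 12920.5 FPKM in PRP-MNs, against 9234 FPKM in MNs. Titin (Ttn) was at 15.1 FPKM in PRP-MNs, against 6.79 FPKM in MNs, and the titin cap gene Tcap at 106 FPKM in PRP-MNs, against 274 FPKM in MNs. Fat cell genes had a median difference of -0.47, with 2 of 14 lower by 2-fold or more, and the fatty acid carrier Fabp4 was at 445 FPKM in PRP-MNs, against 493 FPKM in MNs. Schwann cell genes had a median difference of -0.36, with 1 of 11 lower by 2-fold or more, beside 7.39% of all genes. The myelin gene Mbp was level, at 38.7 FPKM in PRP-MNs, against 38.2 FPKM in MNs. The Y-linked genes (Ddx3y, Eif2s3y, Kdm5d, Uty) were above 1 FPKM in both, for a median difference of -0.12.

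Genes of cell division lay within the quartiles of all genes by their median, with 3 of 27 lower by 2-fold or more, beside 7.39% of all genes, none higher and a median of -0.31. The 3 lower genes, Plk1, Ccnb1 and Cdc20, act in mitosis. Cdc20, an activator of mitotic exit, was at 10.6 FPKM in PRP-MNs, against 28.7 FPKM in MNs, and the replication helicase gene Mcm4 at 17.6 FPKM in PRP-MNs, against 18.1 FPKM in MNs. The proliferation marker Mki67 was at 8.58 FPKM in PRP-MNs, against 17.5 FPKM in MNs. Immediate early genes split, with 4 of 19 higher by 2-fold or more, 6 lower and a median of 0.29. The stress factor Atf3 was at 64.5 FPKM in PRP-MNs, against 18.5 FPKM in MNs. The AP-1 subunit Fosb was at 3.55 FPKM in PRP-MNs, against 17.0 FPKM in MNs, and the nuclear receptor gene Nr4a1 at 27.3 FPKM in PRP-MNs, against 108 FPKM in MNs.

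Lists of stress and metabolism had medians within 2-fold. Heat shock genes had a median difference of 0.10, with Hspb1, a small heat shock protein, at 247 FPKM in PRP-MNs, against 109 FPKM in MNs. Hypoxia and glycolysis genes had a median difference of 0.22, with 3 of 18 (of 19 listed) higher by 2-fold or more. Slc16a3, the lactate exporter of glycolytic cells, was at 44.2 FPKM in PRP-MNs, against 15.3 FPKM in MNs, and Ldha, which makes lactate, at 637 FPKM in PRP-MNs, against 666 FPKM in MNs. The glycolytic enzyme gene Gapdh, which has many pseudogenes, was at 67.5 FPKM in PRP-MNs, against 30.5 FPKM in MNs, a value that is uncertain where fragments were shared with copies. NRF2 targets and metallothioneins had a median difference of 0.47, and 1 of 12 was higher by 2-fold or more, beside 7.16% of all genes. That one was the cystine transporter gene Slc7a11, at 11.6 FPKM in PRP-MNs, against 1.41 FPKM in MNs. YAP targets and partners had a median difference of -0.07 over 10 of 12 listed and parted, Ankrd1 being higher by 4.49 and Cyr61, a matricellular target, at 71.6 FPKM in PRP-MNs, against 167 FPKM in MNs. Prostaglandin genes had a median difference of 0.03. Of 12 (of 15 listed), 1 was higher by 2-fold or more, Ptgs2, and 1 lower, the leukotriene enzyme Alox5. Over all genes the shares higher and lower were 7.16% and 7.39%.

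Ribosomal protein genes and mitochondrially encoded genes each differed by less than 2-fold in all members measured. Ribosomal protein genes had a median difference of -0.27 over 78 (of 79 listed) genes, and 71 of them lay below 0. Rpl17, of the large subunit, was at 139 FPKM in PRP-MNs, against 243 FPKM in MNs. The 13 mitochondrially encoded genes had a median difference of 0.33 and all lay above 0, with mt-Nd6 at 1999 FPKM in PRP-MNs, against 1248 FPKM in MNs.

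The libraries PRP and NC, whose labels name no microneedles, form a second pair that differs by PRP and shares no library with PRP-MNs and MNs. For 12991 genes at 1 FPKM or more in a library of each pair, the log2 differences of the pairs had a Pearson r of 0.38 and a Spearman rho of 0.28. This is across genes, which are not independent replicates. Of these genes 811 (6.24%) were higher by 2-fold or more in PRP-MNs than in MNs and 1035 (7.97%) in PRP than in NC. Higher in both were 426, which is 52.5% of the first list and 41.2% of the second. Lower by 2-fold or more were 891 (6.86%) in PRP-MNs than in MNs and 145 (1.12%) in PRP than in NC, where 9.08% in all were past 2-fold. The 39 genes lower in both are 4.38% of the first list and 26.9% of the second.

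The interferon list was the clearest case of a like direction, with all 24 genes higher by 2-fold or more in both pairs, beside 6.24% and 7.97% of all genes. Their median difference was 3.47 with microneedles and 2.50 without. Monocyte genes had medians of 2.78 and 3.40, in the same order. Other lists differed between the pairs. Sebaceous gland genes had medians of -2.24 and 0.05, Wnt pathway genes of -1.06 and -0.27, and fibroblast and matrix genes of -1.43 and 0.92. Complement genes had medians of -0.66 and 1.57, and 14 of 15 were higher by 2-fold or more in PRP than in NC, beside 7.78% of the genes measured there, and none lower, beside 1.46% (9.24% past 2-fold either way). With 1 library per group these differences between pairs were not tested.

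Genes lower with PRP in the microneedle pair and higher with PRP in the other pair, each by at least 2-fold, numbered 80, and 7 went the other way. The 80 are 8.98% of the genes lower in the microneedle pair, near the 7.97% of all genes that were higher in PRP than in NC. The genes named from them here were chosen after their values had been seen. The acute-phase gene Saa3 was at 86.2 FPKM in PRP-MNs, against 277 FPKM in MNs, beside 501 FPKM in PRP, against 4.40 FPKM in NC. Serpina3n, an acute-phase protease inhibitor gene, was at 112 FPKM in PRP-MNs, against 377 FPKM in MNs, beside 158 FPKM in PRP, against 21.7 FPKM in NC. Genes lower in both pairs included Retnla and Fosb, given above. Also chosen after their values had been seen were the epidermal defensin Defb6, at 3.51 FPKM in PRP-MNs, against 95.1 FPKM in MNs, and Calml3, a calmodulin-like epidermal gene, at 11.5 FPKM in PRP-MNs, against 89.6 FPKM in MNs.

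**Figure D5:**
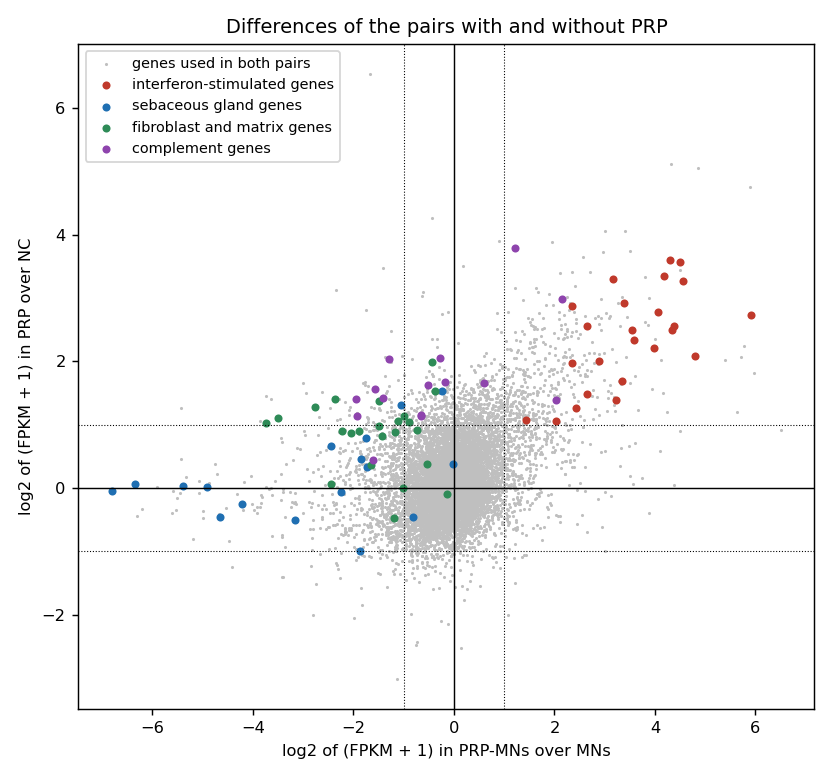
Each point is a gene, with its log2 ratio of FPKM + 1 in PRP-MNs over MNs on the horizontal axis and in PRP over NC on the vertical axis, and dotted lines at 2-fold. Interferon-stimulated genes lie high on both axes, sebaceous gland genes spread to the left near 0 on the vertical axis, and many matrix and complement genes lie in the upper left.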

How the data were processed

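Mouse skin RNA, 1 μg per library, went into NEBNext Ultra libraries, per the labels' protocols, and GRCm38 is the genome build in the submitters' processing notes. The aligner, the quantifier, the annotation and the strandedness are not given in the sources used here. FPKM is the unit of the single table that the authors deposited, with 1 column per library. FPKM sums were 460805 in PRP-MNs, 448607 in MNs, 500187 in PRP and 515230 in NC. Depth was read from the spacing of low values and is approximate, since steps smaller than 1 fragment also occurred. Of 25571 genes, 22036 had an Ensembl identifier and 3535 were models assembled from the reads. Where strand was not used, overlapping and antisense genes cannot be told apart.

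Log2 ratios of FPKM + 1 (pseudocount 1) were computed with Python 3.11.15 and pandas 2.3.3 for genes at 1 FPKM or more in a compared library, and genes past 2-fold were counted. With 1 library per group no test was run. Medians and counts were taken over 51 gene lists and 6 more added after values had been seen. Genes were named by a rule: the 15 highest and 15 lowest at 5 FPKM or more, up to 4 members per list with the largest difference and up to 2 nearest 0, and a set of growth signals. The comparison, its genes and the lists were chosen with earlier results of these data known. Gene names and positions are from GENCODE M21, promoters from RefSeq on GRCm38.p6. A few genes that the rule or the lists chose are not reported here. The calculation was tested on simulated data. Alternatives were a pseudocount of 0.1, other filters, other scalings and Ensembl genes alone.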

Additional observations from a re-analysis of the deposited data

Results flagged for a closer look

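Of 297 named genes, 7 were at least 2-fold lower with PRP with microneedles and at least 2-fold higher with PRP without, and none the other way. Among the 12991 genes used in both pairs, 80 went this way and 7 the other way. In PRP over NC, 7.97% of all these genes were higher by 2-fold or more and 1.12% lower. The 80 are 8.98% of the genes lower in the microneedle pair, near that 7.97%. The naming rule takes the largest differences of PRP-MNs over MNs in each list, which favours such genes. With 1 library per group the difference between the pairs was not tested. Collagen genes made up 3 of the 7 named genes, with log2 differences of -3.51 for PRP-MNs over MNs and 1.10 for PRP over NC in Col1a1. The matching values were -3.74 and 1.03 in Col1a2 and -2.77 and 1.28 in Col3a1. The cochlin gene Coch had -5.43 with microneedles and 1.26 without. The complement gene C4b had -1.94 and 1.41, and Serping1, an inhibitor of complement, -1.93 and 1.13. The mast cell gene Cpa3 had -2.09 and 1.23.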

How the results depend on the processing

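With 1 library per group, no value has a replicate error and none can be left out. No paired analysis was possible because each group has 1 library and the result comes from no test. Counts of genes at least 2-fold higher and lower in PRP-MNs than in MNs were 1294 and 1453 with a pseudocount of 0.1, 806 and 766 with a filter at 5 FPKM, 977 and 1090 with equal FPKM sums, and 867 and 952 with Ensembl genes alone, beside 997 and 1030 as reported. The share of higher genes among those past 2-fold lay between 47.1% and 51.3%. Genes lower in both pairs numbered 39, against 89 with a pseudocount of 0.1 and 23 with a filter at 5 FPKM, which leaves fewer genes. Of 50 list medians, 17 were past 2-fold, of which 14 stayed past it without a filter on low values, which brings in genes near 0, and 16 or 17 under the other settings. The B cell median turned to 0.11 without that filter, over more genes than the 1 measured here, at -1.39. Of 297 genes that the naming rule chose, 171 were past 2-fold, and between 169 and 171 of them stayed past it. Sizes moved more: a pseudocount of 0.1 moved 77 of the 297 by over 0.25, at most by 3.19 on the log2 scale, and 10 list medians, at most by 2.66. A filter at 5 FPKM moved 10 list medians, at most by 1.63. Low genes are limited by depth: values near 0.174 (PRP-MNs) and 0.161 FPKM (MNs) rest on about 3 fragments on 1 kb.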

Other observations

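Skint1 and Skint2, genes of the epidermis that shape its resident gamma delta T cells, were chosen after their values had been seen and were lower with PRP in both pairs. Skint1 had a log2 difference of -1.91 for PRP-MNs over MNs, and was at 22.6 FPKM in PRP, against 49.3 FPKM in NC. Skint2 was listed at 0 in PRP-MNs and at 2.55 FPKM in MNs, and at 1.04 FPKM in PRP, against 6.34 FPKM in NC. The Langerhans cell gene Cd207 (langerin) was at 0.970 FPKM in PRP-MNs, against 4.43 FPKM in MNs, and at 11.3 FPKM in PRP, against 23.3 FPKM in NC, so that NC was highest and PRP-MNs lowest.

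Myl12b, a myosin light chain gene, and Sept2, a septin gene, each have a second Ensembl identifier whose value was near 0 in some libraries. The second Myl12b identifier (ENSMUSG00000117098) was listed at 0 in PRP-MNs and at 108.9 FPKM in MNs, and at 0 in PRP and in NC. The first was at 49.8 FPKM in PRP-MNs, against 46.7 FPKM in MNs. The second Sept2 identifier (ENSMUSG00000116048) was at 18.1 FPKM in PRP-MNs, against 0.00788 FPKM in MNs, and at 31.5 FPKM in PRP, against 13.2 FPKM in NC. The first was at 55.7 FPKM in PRP-MNs, against 69.6 FPKM in MNs. Both second identifiers overlap the first on the same strand.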
